A study of Homo sapiens with 30 samples.

Results

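The samples described here are 6 of the 30 arrays of the series: the 3 cultures exposed to titanium dioxide nanobelts (TiO2-NB) at 10 µg/ml for 24 h, and the 3 cultures exposed to the same dose for 1 h. They were chosen by their sample labels, and no measured value entered the choice. Each culture was a mixture of Caco-2, a human colorectal carcinoma line whose cells come to resemble absorptive enterocytes, and HT29-MTX, a mucus-secreting colon carcinoma line selected with methotrexate. The lines were seeded at 75% and 25% on porous inserts, kept for 14 days, and exposed from the apical side. The time change in the nanobelt cultures (24 h minus 1 h) was set beside the same time change in control cultures given fresh medium alone, in cultures given TiO2-NB at 100 µg/ml, and in cultures given multi-walled carbon nanotubes (MWCNT) at 10 µg/ml, with 3 arrays at 24 h and 3 at 1 h in each. All of these cultures shared the mixture of lines and the time in culture before exposure, and no group is a culture of 1 line alone. Flasks of each line were pooled before seeding, so the replicates, which the labels call biological, may be wells of 1 pool of cells, and the p-values measure only the spread between these samples, which may be technical.

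TiO2 nanobelts are thin, elongated crystals of titanium dioxide, a poorly soluble white pigment material. Cultured epithelial cells can answer fresh medium or handling with a fast wave of transcription. Immediate early genes such as EGR1 and ATF3 are switched on within minutes from factors already present in the cell and are switched off again soon after, while slower programmes (metabolism, chaperones, the cell cycle, ribosome production) adjust over hours. A comparison of 24 h with 1 h sets an early state against a later one, and the control cultures show how much of that difference occurs with fresh medium alone. No array was taken before 1 h, so the start, height or end of such a wave was not measured.

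The levels are log2 values of probe sets after RMA, so a change is one relative to the rest of each array. Array medians ran from 6.45 to 6.49 over the series, and replicate arrays correlated at 0.997 or more. Epithelial markers were high in the nanobelt cultures at both times (EPCAM 13.14 at 24 h and 13.06 at 1 h, CDH1 13.01 and 12.92), and 2 of 6 fell, by at most 0.20. Of 10 enterocyte markers, 1 rose (CDX2, a transcription factor of intestinal identity, by 0.31) and 9 did not pass, with FABP1 at 13.84 and 13.87 and APOA1 at 14.05 and 14.10. None of the 10 goblet cell markers passed; the secreted goblet cell products TFF3 (11.56 and 11.62) and AGR2 (13.07 and 13.15) were high, whereas the gel-forming mucin MUC2 stood at 6.12 and 6.02. The summed log2 level of the 10 goblet cell markers ranged from 87.8 to 88.0 at 24 h and from 87.2 to 87.5 at 1 h. That of the 10 enterocyte markers ranged from 108.76 to 109.01 at 24 h and from 108.07 to 108.8 at 1 h, which overlap. For the 6 epithelial markers it ranged from 75.51 to 75.70 at 24 h and from 75.67 to 76.04 at 1 h. Of the markers of cells that the culture should lack, 4 of the 6 listed for leukocytes were measured. Of these, 1 of 4 leukocyte and 2 of 5 fibroblast and endothelial markers lay in the lowest 1 in 3 of levels. PTPRC was at 3.70 and 3.85, VWF at 5.29 and 5.36 and COL1A1 at 7.71 and 7.76, while LYZ, which intestinal epithelium also makes, stood at 11.34 and 11.25. The summed level ran from 27.3 to 27.8 at 24 h and from 27.7 to 28.1 at 1 h for the leukocyte markers, and from 28.9 to 29.3 at 24 h and from 29.4 to 29.7 at 1 h for the fibroblast and endothelial ones. Their part in the results was not tested, and in these bulk samples fewer cells of a line and less RNA per cell cannot be told apart. The 18S ribosomal RNA probe set was 9.17, 9.33 and 9.54 at 24 h and 9.70, 10.35 and 8.50 at 1 h (exact two-sided permutation test, p = 0.8), and the largest shift among the ribosomal RNA probe sets was -0.43 for the middle of 28S (p = 0.1, the smallest p that 3 arrays against 3 can give).

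Between 1 and 24 h of exposure the nanobelt cultures changed widely. Of 22215 probe sets, 6071 passed an adjusted p of 0.05 (27.3%), 3027 of them higher and 3044 lower at 24 h. With 1 probe set standing for each gene, 3769 of 11963 genes passed (31.5%), of which 1968 rose (16.5%) and 1801 fell (15.1%). Most changes were small: 370 genes (3.09%) passed with a change of at least 1.5-fold. The groups of 3 arrays did not overlap for 4979 genes (41.6%), and the median change of all genes was -0.01 on the log2 scale.

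The gene with the largest rise was FAM13A. The level of its probe set was 11.96, 12.05 and 12.07 at 24 h, against 9.71, 9.78 and 9.47 at 1 h, a rise of 2.37 ± 0.09 (SE of the log2 change, n = 3 arrays per group, 5.18-fold, adjusted p = 6.9e-15). All 3 late arrays lay above all 3 early ones, as was required of each gene named for its size here. HILPDA, a hypoxia-inducible lipid droplet protein that restrains lipolysis, stood at 10.72, 10.66 and 10.89 at 24 h and at 8.81, 8.53 and 8.58 at 1 h (2.12 ± 0.10, 4.34-fold). PPARG, the lipid-sensing nuclear receptor that is abundant in colonic epithelium, was at 10.12, 10.13 and 10.29 at 24 h, against 8.81, 8.83 and 8.59 at 1 h (1.44 ± 0.06, 2.71-fold, adjusted p = 4.2e-14). KANK1, an adaptor at the rim of focal adhesions that restrains actin polymerisation, reached 9.41, 9.58 and 9.51 at 24 h and was at 7.90, 7.85 and 7.88 at 1 h (1.63 ± 0.07, 3.08-fold). In each of these genes the lowest late array lay well above the highest early one.

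Several other genes among the 15 largest rises bear on secretion, signalling and transport. TMCC1, a membrane protein of the endoplasmic reticulum, rose by 2.04 (4.13-fold), RNF186, an intestinal ubiquitin ligase of the same organelle, by 1.61 (3.06-fold), and the secreted glycoprotein STC2 by 1.48 (2.80-fold). KDM3A, a histone demethylase that hypoxia induces, was at 10.44, 10.60 and 10.60 at 24 h, against 9.29, 9.33 and 9.22 at 1 h, a rise of 1.26 ± 0.05. The RNA-binding protein genes KHDC4 (1.71) and RSRP1 (1.72), the tRNA methyltransferase-like gene TRMT1L (1.34), the myo-inositol transporter SLC5A3 (1.34), the ephrin ligand EFNA1 (1.32) and the adaptor SLA (1.30) rose as well. FAM200C also belongs to the 15 and rose by 2.15, with levels of 6.85, 7.04 and 6.88 at 24 h and 4.96, 4.73 and 4.62 at 1 h.

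The largest fall was that of EGR1, an immediate early zinc finger transcription factor. Its probe set was at 7.64, 7.61 and 7.63 at 24 h, against 9.42, 9.57 and 9.26 at 1 h, a change of -1.79 ± 0.12 (3.46-fold lower, adjusted p = 2.2e-11). ID1, an inhibitor of basic helix-loop-helix factors and a target of BMP signalling, was at 9.41, 9.39 and 9.36 at 24 h and at 11.02, 11.04 and 10.75 at 1 h (-1.55 ± 0.09, 2.92-fold lower). TIGAR, a phosphatase that lowers the flux through glycolysis, fell to 7.57, 7.52 and 7.52 at 24 h, against 9.16, 9.09 and 8.97 at 1 h (-1.54 ± 0.07, 2.90-fold lower). The late arrays of these genes sat in a narrow band, and in each case the lowest early array lay more than 1 log2 unit above the highest late one.

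Stress and growth signalling genes made up part of the remaining 12 large falls. ATF3, a stress-induced transcription factor, was at 7.22, 7.18 and 7.41 at 24 h and at 8.50, 8.74 and 8.27 at 1 h (-1.24 ± 0.14). RHOB, a small GTPase of endosomes that is induced by stress and growth factors, fell by 1.10, and EREG, an EGF receptor ligand, by 1.02. UGCG, which makes glucosylceramide, changed by -1.42, the transcription factor KLF13 by -1.41, the cap methyltransferase gene PCIF1 by -1.21 and the chromatin regulator ANKRD11 by -0.96. The splicing factors SRSF6 (-1.01) and SRSF5 (-0.94), the protease inhibitor SERPINB8 (-0.93), the acetyltransferase subunit NAA15 (-0.98) and TCIM (-1.01), whose probe set lies in the lowest 1 in 3 of all by mean level, complete the 15. NAA15 lost its call when only the compared groups were fitted (adjusted p = 0.063) and without the second array at 1 h (adjusted p = 0.057).

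**Figure D1:**
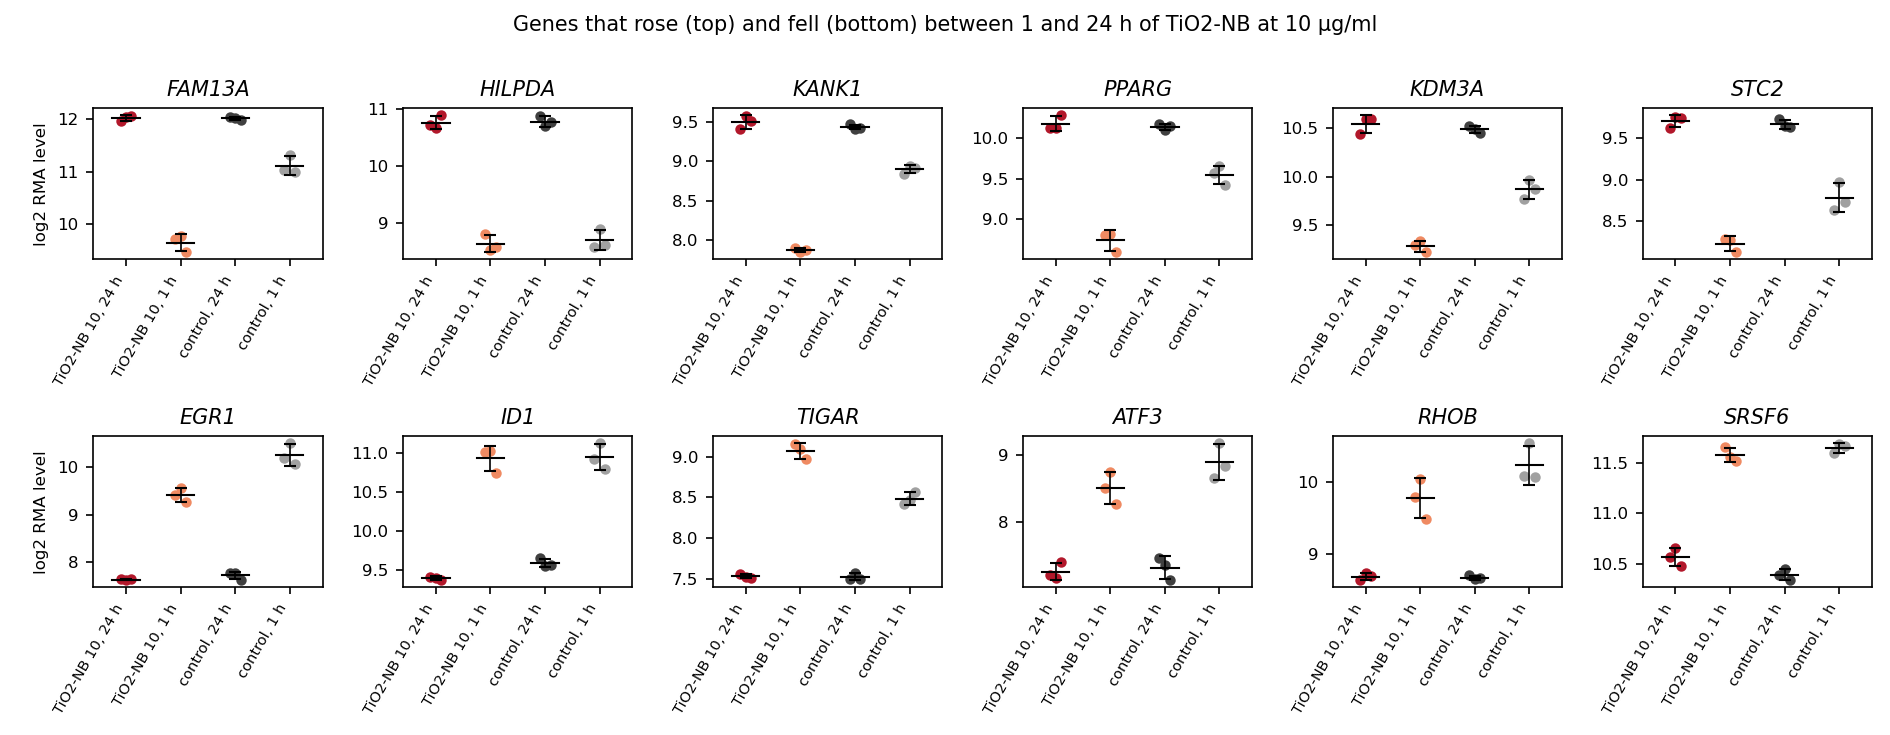
Log2 level of 6 genes that rose and 6 that fell, in each array (points), with group means (bars) and SD (whiskers, n = 3), for TiO2-NB at 10 µg/ml at 24 h and 1 h and for controls at 24 h and 1 h; each panel has its own axis, which does not start at 0. FAM13A lies near 12 in both groups at 24 h but near 9.65 in nanobelt cultures and 11.12 in controls at 1 h, whereas HILPDA and ID1 lie close together in nanobelt and control cultures at each time.

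Of the immediate early factors, a list of transcription factors and regulators, 14 of 23 measured members fell, 2 rose and 7 did not pass. Their median change was -0.30, against -0.01 for all genes, of which 31.5% were called. Beside EGR1 and ATF3, the growth regulator MYC fell to 9.42, 9.45 and 9.47 at 24 h, against 10.45, 10.32 and 10.25 at 1 h (-0.89 ± 0.06), and the epithelial factor KLF4 fell by 0.74. IER5 was one of the exceptions, with a rise of 0.38. Of 16 members of the ERK feedback and EGF ligand list, 10 fell and 2 rose, among them the feedback inhibitors SPRY4 (-0.50) and DUSP6 (-0.54), which fell, and the receptor EGFR itself, whose brightest probe set rose by 0.57 while another changed by -0.47. Of 24 NF-kB and inflammation genes, 8 fell and 2 rose: the chemokines CXCL8 (-0.88 ± 0.15) and CCL20 (-0.84 ± 0.08) fell, and the cytokine IL1B rose by 0.59. The control cultures showed counts of the same kind, with 14 falls and 2 rises among the immediate early factors and 10 falls and 2 rises among the NF-kB genes.

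The promoter of EGR1 is shown because it holds 2 CArG boxes, the palindromic letters that serum response factor reads, between 250 bases before and 50 after the start (RefSeq, GRCh38.p14). The box was found in 2 of the 17 immediate early genes with a promoter in the table (EGR1 and SRF, the factor's own gene). A gene was counted if any of its promoters matched. Of the 35116 single promoters 1.29% matched. The 2 shares thus have unlike units, here and for the other motifs below. The region is chr5:138465229-138465528 on the plus strand, and capitals mark the boxes, the first of which begins 105 bases before the start.
EGR1: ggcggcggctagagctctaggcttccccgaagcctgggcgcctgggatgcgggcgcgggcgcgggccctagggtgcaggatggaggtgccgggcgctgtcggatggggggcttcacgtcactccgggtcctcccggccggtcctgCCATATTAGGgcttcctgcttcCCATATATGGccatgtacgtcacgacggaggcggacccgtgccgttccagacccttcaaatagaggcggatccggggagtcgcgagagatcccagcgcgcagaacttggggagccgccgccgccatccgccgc
The cAMP response element TGACGTCA was found in 2 of these 17 genes (JUND and MAFF) and in 1.85% of all single promoters. JUND, a subunit of AP-1, fell by 0.48. A match is a description of the letters only, and no binding was measured.

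Metallothioneins are small cysteine-rich proteins that buffer zinc and copper. Of 12 measured metallothionein and zinc genes, 6 fell, 2 rose and 4 did not pass, with a median of -0.27 (66.7% called, against 31.5% of all genes). All 6 that fell encode metallothioneins. MT1E was at 7.78, 7.85 and 7.99 at 24 h, against 8.57, 8.55 and 8.46 at 1 h (-0.66 ± 0.09), and MT1X changed by -0.58, MT2A by -0.46, MT1F by -0.42, MT1H by -0.38 and MT1G by -0.28. MT1M (-0.25, adjusted p = 0.063) did not pass, and the call of MT1G was lost without the second array at 24 h (adjusted p = 0.064). The zinc transporters SLC30A5 (0.33) and SLC39A14 (0.12) rose, SLC39A14 not in a fit on the compared groups alone (adjusted p = 0.14). The metallothionein genes are near-identical, so 1 probe set can read several of them and the members are not independent. In controls 5 of the 12 fell and 1 rose, where 21.1% of all genes were called. With nanobelts none of the 12 differed from control in its time change.

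The MT2A promoter is shown as a zinc-responsive one. The core of the metal response element, TGCNCNC, was found in 5 of the 6 genes of this list with a promoter in the table. It is short, and 55.9% of all single promoters hold it, a share counted per promoter and not per gene. MT2A holds 8 matches in chr16:56608334-56608633 (plus strand), in capitals, counting both strands.
MT2A: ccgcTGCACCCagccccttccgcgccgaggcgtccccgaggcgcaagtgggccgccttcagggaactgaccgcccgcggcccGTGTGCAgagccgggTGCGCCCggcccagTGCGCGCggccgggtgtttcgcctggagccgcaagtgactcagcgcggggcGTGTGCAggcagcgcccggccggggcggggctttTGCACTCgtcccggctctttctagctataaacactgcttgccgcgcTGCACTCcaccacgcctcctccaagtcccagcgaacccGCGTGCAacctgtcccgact
MT2A itself was at 8.16, 8.03 and 8.18 at 24 h and at 8.61, 8.51 and 8.65 at 1 h in the nanobelt cultures, so the groups did not overlap.

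Among cytosolic heat shock genes, which encode chaperones, 7 of 15 rose, 2 fell and 6 did not pass, with a median of 0.11 (60% called, against 31.5% of all genes). CHORDC1, a partner of HSP90, was at 10.00, 10.07 and 9.94 at 24 h, against 8.72, 8.79 and 8.87 at 1 h (1.21 ± 0.07, 2.31-fold, adjusted p = 8.1e-12). HSPH1, a nucleotide exchange factor for HSP70, rose by 0.80 ± 0.05, HSPA1L, an HSP70 family member, by 0.70, and the co-chaperone DNAJA1 by 0.25. HSPA4, an HSP110 family member, fell by 0.24. In controls 4 of the 15 rose and 2 fell, where 21.1% of all genes were called. The rises of CHORDC1, HSPH1, HSPA1L and DNAJA1 were also larger than in controls, by 0.55 for CHORDC1, 0.37 for HSPH1, 0.41 for HSPA1L and 0.21 for DNAJA1 (adjusted p between 0.0037 and 0.019). In a fit on the 4 compared groups alone HSPH1 kept that call, and CHORDC1 (adjusted p = 0.051), HSPA1L (0.078) and DNAJA1 (0.14) lost it, HSPA1L and DNAJA1 also without single arrays (0.052 to 0.060). Of 21 chaperone and unfolded protein response genes of the endoplasmic reticulum, 7 fell and 1 rose (38.1% called, near the 31.5% of all genes). The chaperone HSPA5 (-0.25) and SDF2L1 (-0.43) were among those that fell. In controls 8 of the 21 fell and 1 rose, and none of the 21 differed from control in its time change.

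The promoter of CHORDC1 is shown because it holds 3 copies of GAANNTTC, the paired unit of the heat shock element, which reads the same on both strands. The letters were found in 8 of the 13 genes of this list with a promoter in the table (HSPA1L, HSP90AA1, HSP90AB1, DNAJB1, DNAJA1, HSPB1, HSPD1 and CHORDC1). A gene was counted if any of its promoters matched, whereas the share for all, 6.77%, is of single promoters. The region is chr11:90223000-90223299 on the minus strand, written 5′ to 3′ in the direction of the gene, with the matches in capitals.
CHORDC1: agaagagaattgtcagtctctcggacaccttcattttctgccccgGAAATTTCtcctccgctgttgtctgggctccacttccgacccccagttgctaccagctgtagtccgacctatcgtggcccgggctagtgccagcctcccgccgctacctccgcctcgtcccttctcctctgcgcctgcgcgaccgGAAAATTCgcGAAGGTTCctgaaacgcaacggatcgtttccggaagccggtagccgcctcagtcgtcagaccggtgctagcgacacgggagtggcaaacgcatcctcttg
Of the 8 genes, CHORDC1, HSPA1L, DNAJA1, HSPD1 (0.11) and HSP90AB1 (0.13) rose between 1 and 24 h, DNAJB1 (-0.16) fell, and HSP90AA1 (0.11) and HSPB1 (0.10) did not pass. In a fit on the compared groups alone the calls of HSPD1 (adjusted p = 0.17), HSP90AB1 (0.16) and DNAJB1 (0.20) were lost, and that of DNAJB1 also without single arrays (0.075 to 0.21).

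The hypoxia and glycolysis genes that passed all rose. Of 34 measured, 15 rose, none fell and 19 did not pass, with a median of 0.16, against 16.5% of all genes called higher and a median of -0.01. MXI1, an antagonist of MYC, was at 11.55, 11.64 and 11.66 at 24 h, against 10.39, 10.50 and 10.19 at 1 h (1.26 ± 0.08), and the glucose transporter SLC2A3 was at 12.24, 12.32 and 12.21, against 11.49, 11.55 and 11.22 (0.84 ± 0.08, 1.79-fold). EGLN1, the oxygen-sensing prolyl hydroxylase, was at 8.45, 8.47 and 8.52 at 24 h and at 7.95, 7.79 and 7.96 at 1 h (0.58 ± 0.08). PFKFB3, which activates glycolysis, rose by 0.76, hexokinase HK2 by 0.66 and the peptide hormone gene ADM by 0.63. KDM3A, MXI1, SLC2A3 and EGLN1 rose more than in controls, where 6 members of the list rose; the call of SLC2A3 was lost in a fit on the compared groups alone (adjusted p = 0.054). The core letters ACGTG were found in at least 1 promoter of 16 of 29 genes of the list. Of all single promoters 21.4% hold them, a share counted per promoter and not per gene.

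Of 17 nuclear receptor genes, 8 rose and 3 fell (64.7% called, against 31.5% of all genes), and in controls 3 rose and 2 fell. RARB, a retinoic acid receptor, was at 7.12, 6.99 and 7.22 at 24 h, against 5.95, 6.01 and 6.02 at 1 h (1.12 ± 0.09, 2.17-fold), and NR5A2, a receptor of intestinal crypts, rose by 0.53. The bile acid-induced repressor NR0B2 (-0.44) and the vitamin D receptor VDR (-0.23) fell. In sterol metabolism, INSIG2, which holds SREBP precursors in the endoplasmic reticulum, rose by 0.89 and HSD17B7 by 0.34. Of the 20 members of the sterol list, 3 rose and 5 fell (40% called, against 31.5% of all genes), and in controls 1 rose and 4 fell. SREBF1, the master regulator of fatty acid synthesis, fell by 0.62. Within the TGF-beta list, ID1 fell whereas SMAD3 (0.70) and SMAD4 (0.69), the signal-transducing partners, rose. Of its 21 members, 8 rose and 3 fell (52.4% called), and in controls 6 rose and 1 fell.

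The mitotic genes that passed all rose. Of 42 measured, 28 rose, none fell and 14 did not pass, with a median of 0.30. HMMR, a spindle protein, was at 9.44, 9.55 and 9.28 at 24 h, against 8.87, 8.74 and 8.88 at 1 h (0.60 ± 0.06, 1.51-fold). The kinesin KIF20A rose by 0.59, topoisomerase TOP2A by 0.58 and the spindle kinase AURKA by 0.35. The other particle groups showed the same: 31 of the 42 rose with TiO2-NB at 100 µg/ml (median 0.28) and 33 with MWCNT at 10 µg/ml (median 0.34). In controls 7 of the 42 rose (median 0.11). Of all genes, 16.5% were called higher with TiO2-NB at 10 µg/ml, 16.8% at 100 µg/ml, 13.1% with MWCNT and 8.79% in controls. The time change with TiO2-NB at 10 µg/ml differed from that of control for 4 of the 42 genes (HMMR, KIF20A, AURKA and CDC25C). All 4 calls were lost in a fit on the compared groups alone (adjusted p between 0.054 and 0.11), KIF20A also without the second nanobelt array at 24 h (0.059), and AURKA and CDC25C without 5 and 10 of the 12 arrays in turn. Of 47 DNA replication genes, 6 rose and 11 fell (36.2% called, near the 31.5% of all genes). RFC1 (0.42) and ORC2 (0.35) were among the rises, and GINS3 (-0.51) and MCM6 (-0.30) among the falls.

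Ribosome biogenesis genes, whose products assemble ribosomes in the nucleolus, fell in 20 of 34 cases, with 3 rises and a median of -0.19. RRS1 was at 9.02, 8.98 and 8.97 at 24 h, against 9.81, 9.73 and 9.84 at 1 h (-0.81 ± 0.05, 1.75-fold lower), and MRTO4 fell by 0.73, NIP7 by 0.66 and WDR43 by 0.52. Of all genes, 15.1% were called lower with TiO2-NB at 10 µg/ml. In controls 13 of the 34 fell, against 12.3% of all genes. With TiO2-NB at 100 µg/ml 20 of the 34 fell (13.4% of all genes), and with MWCNT at 10 µg/ml 21 (11.7%). With TiO2-NB at 10 µg/ml none of the 43 genes for structural proteins of the cytosolic ribosome passed, and their changes lay between -0.07 and 0.08.

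**Figure D2:**
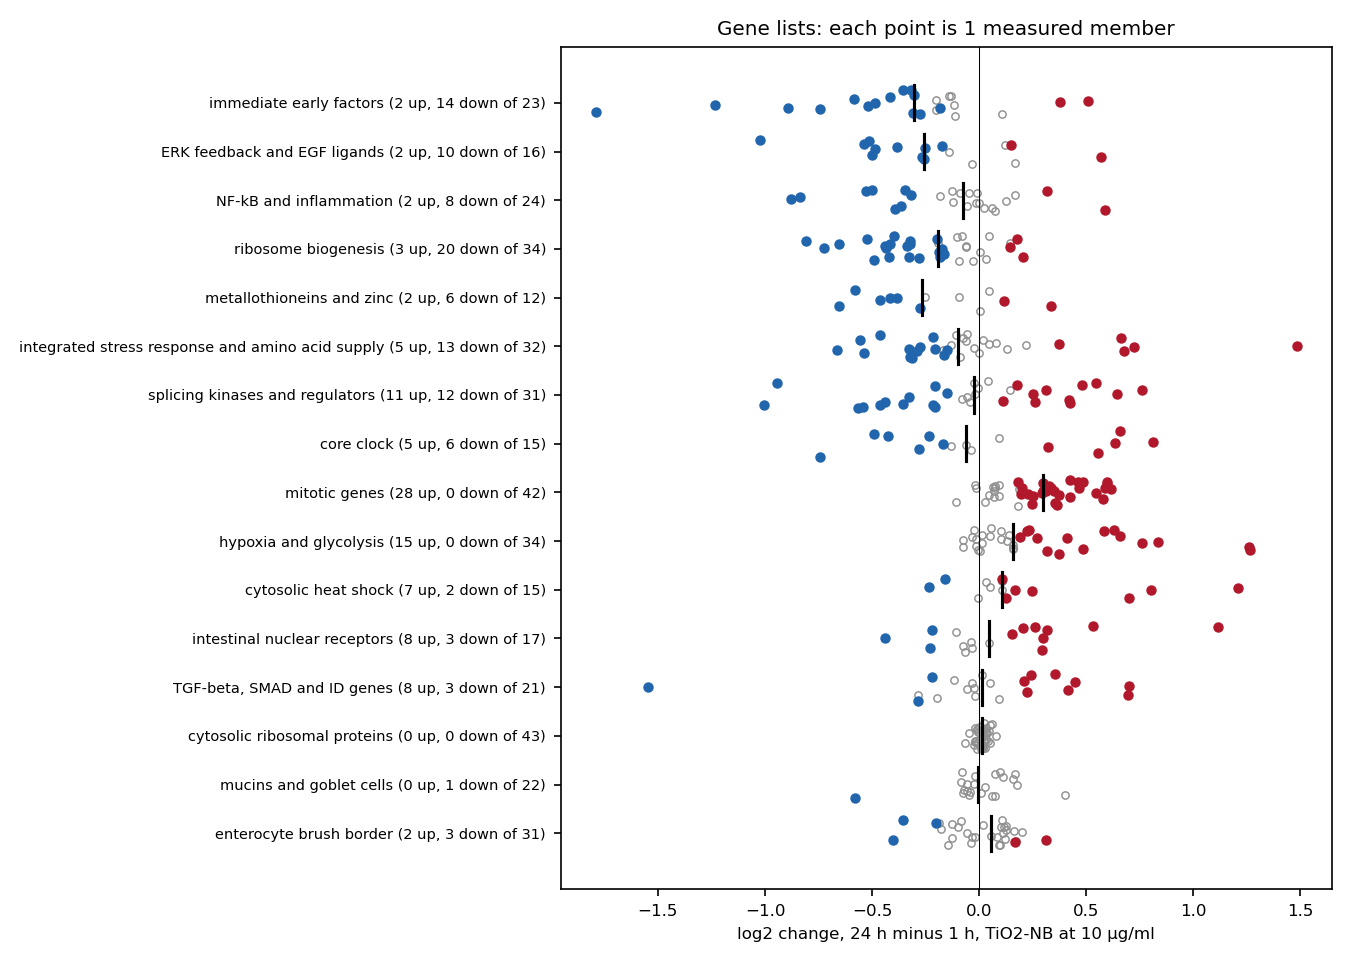
Log2 change from 1 to 24 h in nanobelt cultures for each measured member of 16 gene lists; red points rose, blue points fell, open points did not pass, and black bars are medians. Mitotic and hypoxia genes have no blue point, immediate early factors and ribosome biogenesis genes lie mostly left of 0, and the 43 ribosomal protein genes lie within a tight cluster of open points.

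Splicing regulators split in both directions, with 11 rises and 12 falls among 31 genes (74.2% called, against 31.5% of all genes). SRSF5 averaged 11.04 at 24 h, against 11.99 at 1 h, and SRSF3 fell by 0.44 and the cold-inducible RNA-binding gene CIRBP by 0.54. Among kinases that phosphorylate SR proteins, CLK1 was at 8.51, 8.83 and 8.63 at 24 h and at 7.92, 7.95 and 7.82 at 1 h (0.76 ± 0.07), and CLK4 rose by 0.55. The probe sets of SRPK2, another such kinase, disagreed: the brightest changed by -0.47, a call that was lost without any of 3 single arrays (adjusted p between 0.068 and 0.094), and the other rose by 0.22. Of 15 core clock genes, 5 rose and 6 fell (73.3% called). The repressor NFIL3 (0.81), RORA (0.64), which activates BMAL1, the output factor DBP (0.56), BHLHE40 (0.66) and PER3 (0.32) rose, while BHLHE41 (-0.75), HLF (-0.49), PER2 (-0.28), NR1D2 (-0.43), CRY1 (-0.23) and CRY2 (-0.17) fell. The calls of NR1D2, CRY1 and CRY2 were lost in a fit on the compared groups alone (adjusted p between 0.060 and 0.10), and that of CRY1 also without single arrays (adjusted p between 0.052 and 0.12). The core activators BMAL1 (-0.04) and CLOCK (-0.13) did not pass. In controls 6 of the 31 splicing genes rose and 12 fell, and 2 of the 15 clock genes rose and 4 fell. Of all genes, 21.1% were called there. The time change was more negative with nanobelts for NFIL3 (1.17 in controls) and BHLHE40 (1.64). It was more positive for RORA (0.18 in controls) and DBP (0.13). With 2 sampling times, no rhythm can be read from these values.

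Amino acid and stress supply genes of the ATF4 pathway were mixed, with 5 rises and 13 falls among 32 (56.2% called, against 31.5% of all genes). STC2 and the glutamine transporter SLC38A2 (0.68) rose, and the amino acid transporter SLC7A5 (-0.54) and the factor CEBPG (-0.56) fell. Of 17 p53 targets, 7 fell, among them TIGAR, GADD45A (-0.48) and the cell cycle inhibitor CDKN1A (-0.41), and 2 rose (52.9% called). Of 8 genes of the aryl hydrocarbon receptor list, 4 fell, including the receptor AHR itself (-0.27), and none rose (50% called). Of 29 NRF2 and antioxidant genes, 5 rose and 5 fell (34.5% called, near the 31.5% of all genes). The efflux pump ABCC2 (0.34) was among the rises. The haem oxygenase HMOX1 (-0.32) was among the falls, and its call was lost without the second array at 1 h (limma adjusted p = 0.065). Interferon response genes passed in 8 of 34 cases (23.5%, below the 31.5% of all genes), with IFIT1 (0.67) and OAS1 (0.56) among the 5 that rose. In controls 3 of the 32 ATF4 pathway genes rose and 7 fell. Of the p53 targets there, 3 rose and 7 fell, and of the aryl hydrocarbon receptor list 1 rose and 1 fell. Of all genes, 21.1% were called in controls.

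Of 22 mucin and goblet cell genes, 1 passed (4.55%, against 31.5% of all genes): GCNT3, a mucin-type glycosyltransferase, was at 9.10, 9.05 and 9.20 at 24 h, against 9.79, 9.68 and 9.62 at 1 h (-0.58 ± 0.10, adjusted p = 4.8e-05). FCGBP, a mucus-binding protein, was at 7.09, 7.50 and 7.14 at 24 h and at 6.87, 6.99 and 6.68 at 1 h, which did not pass (adjusted p = 0.068). Of 31 brush border genes, 2 rose and 3 fell (16.1% called), with falls of the lipid carrier FABP2 (-0.40) and the guanylin gene GUCA2A (-0.36). Of 22 junction genes, 3 rose and 4 fell (31.8% called, close to the share of all genes): the claudins CLDN4 (-0.43) and CLDN1 (-0.41) fell, and occludin OCLN (0.33) and desmoplakin DSP (0.36) rose. Lysosomal and endocytic genes rose in 10 of 39 cases and fell in 4 (35.9% called), with SQSTM1, an autophagy receptor, at -0.41.

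The control cultures show how much the levels changed between 1 and 24 h in fresh medium alone. Across the 11963 genes the 2 time changes had a correlation of 0.69, given as a description, since genes are not independent; they share no array. In the control cultures 4014 probe sets passed (18.1%), and 21.1% of genes, 8.79% higher and 12.3% lower. The difference between the time changes passed for 851 probe sets (3.83%), 654 with a more positive change in the nanobelt cultures and 197 with a more negative one. Per gene these were 558 of 11963 (4.66%), 440 more positive and 118 more negative. The fit on the 4 compared groups alone called 277 probe sets, and leaving out single arrays gave 465 (without the second nanobelt array at 24 h), 520 (without the third control at 24 h) and 546 (without the third control at 1 h).

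**Figure D3:**
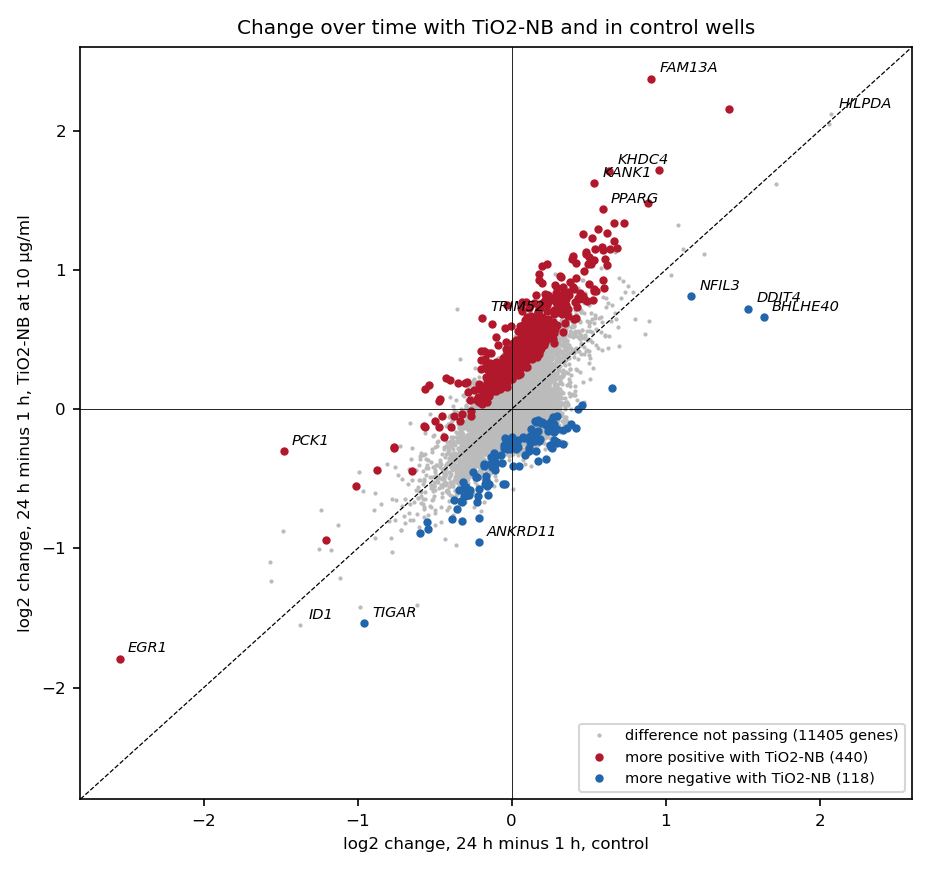
Log2 change from 1 to 24 h in nanobelt cultures (vertical) against the change in controls (horizontal), 1 point per gene, with the dashed line of equal change; red and blue mark the 440 and 118 genes whose changes differed. FAM13A, KANK1 and KHDC4 lie far above the line, BHLHE40 and DDIT4 below it, and HILPDA and ID1 close to it.

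FAM13A again showed the largest difference: it rose by 2.37 in nanobelt cultures and by 0.90 in controls, a difference of 1.47 ± 0.13 (adjusted p = 3.0e-07). Its controls were at 12.05, 12.03 and 11.99 at 24 h, with a mean of 11.12 ± 0.18 (SD, n = 3) at 1 h, so nanobelt and control cultures met at 24 h and were apart at 1 h. KANK1 (difference 1.09 ± 0.09), KHDC4 (1.08 ± 0.11) and PPARG (0.85 ± 0.09) followed the same course, with rises of 0.53, 0.63 and 0.59 in controls. PCK1, the gluconeogenic enzyme gene, showed it from the other side. Its nanobelt cultures were at 8.81, 8.91 and 8.86 at 24 h and at 9.25, 9.43 and 8.80 at 1 h (-0.30, adjusted p = 0.11), while controls were at 8.82, 8.74 and 8.67 at 24 h and at 10.04, 10.45 and 10.18 at 1 h, a fall of 1.48. TRIM52, a ubiquitin ligase gene, rose by 0.66 in nanobelt cultures and changed by -0.19 in controls (difference 0.85 ± 0.12).

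Among the genes with a more negative change, BHLHE40, a clock repressor that many stresses induce, differed by -0.98 ± 0.15 (adjusted p = 6.9e-04). It was at 10.57, 10.76 and 10.77 at 24 h and at 10.29, 10.12 and 9.72 at 1 h with nanobelts, against 10.69, 10.58 and 10.66 at 24 h and 8.88 to 9.14 at 1 h in controls. DDIT4, an inhibitor of mTORC1, rose by 0.72 with nanobelts and by 1.54 in controls (difference -0.82 ± 0.16). TIGAR differed by -0.58 ± 0.10, LRP6, a Wnt co-receptor, by -0.58 ± 0.15 and CMKLR1, the chemerin receptor, by -0.59 ± 0.13. ANKRD11 was at 5.90, 5.94 and 5.98 at 24 h and at 6.86, 7.26 and 6.57 at 1 h with nanobelts, against 6.72, 6.85 and 6.80 at 24 h and 6.92, 7.04 and 7.06 at 1 h in controls (-0.74 ± 0.20, adjusted p = 0.037). Its distance from control was -0.85 at 24 h and -0.11 at 1 h. The calls of ANKRD11 and LRP6 were lost when single arrays were left out, while the other 10 genes named here kept theirs under every alternative.

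Among the 558 genes whose time changes differed, the distance between nanobelt and control cultures lay mostly at 1 h. A gene equally far from control, in the same direction, at both times could not enter this set. The split thus describes these genes only. Of the 440 genes with a more positive time change, 419 were farther from control at 1 h and 21 at 24 h, with a median distance of -0.28 at 1 h and 0.07 at 24 h. Of the 118 with a more negative change, the numbers were 102 and 16, with medians of 0.27 at 1 h and -0.05 at 24 h. For 127 of the 440 and 55 of the 118 the nanobelt and control changes had opposite signs. Both NF-kB genes with a more positive change were farther from control at 1 h. NFKBIA, the inhibitor of NF-kB, was at 9.30, 9.22 and 9.29 at 24 h and at 9.38, 9.47 and 9.34 at 1 h with nanobelts, against 9.37, 9.49 and 9.49 at 24 h and 9.93, 10.11 and 10.01 at 1 h in controls (difference 0.44 ± 0.08), and TNFAIP3, which dampens the same pathway, differed by 0.54 ± 0.07. EGR1 also fell less with nanobelts than in controls (difference 0.75 ± 0.16, adjusted p = 0.0098) and was lower at 1 h, with a mean of 9.42 against 10.26 in controls. Time changes were more positive for 4 of 42 mitotic, 4 of 34 hypoxia, 4 of 15 heat shock and 4 of 31 splicing genes. These were the largest counts of any list, and 3 of 17 nuclear receptor genes did the same. For ribosome biogenesis 4 of 34 had a more negative change. The counts are read against 3.68% and 0.986% of all genes. In the fit on the compared groups alone, the mitotic calls and those of CHORDC1, HSPA1L, DNAJA1 and SLC2A3 were lost, as given above.

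**Figure D4:**
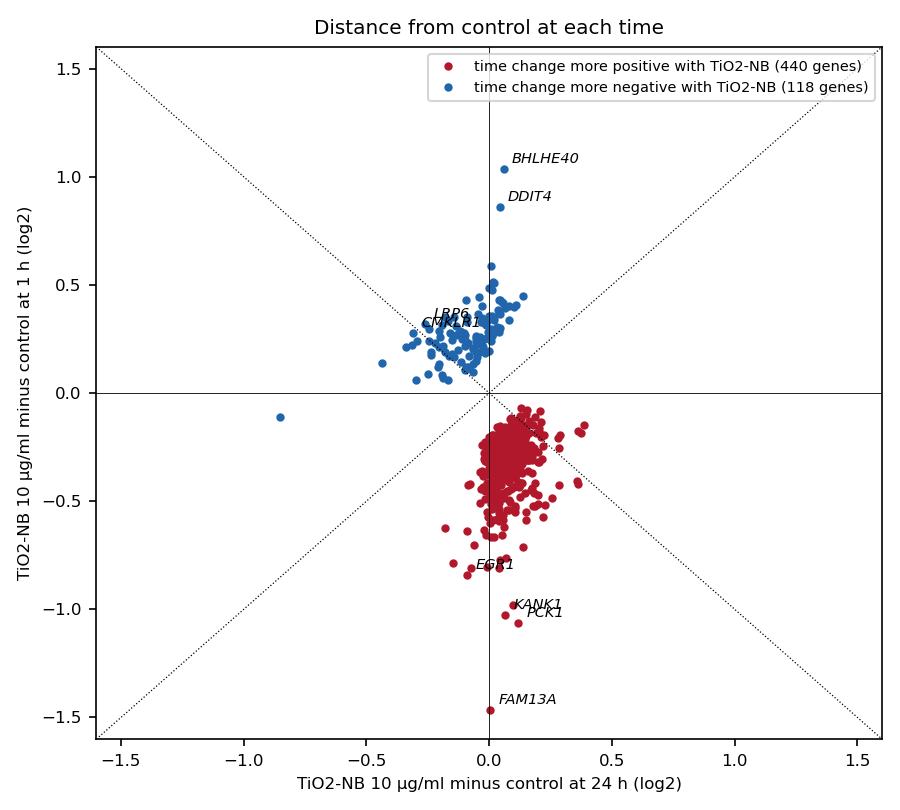
Distance of nanobelt cultures from control at 1 h (vertical) against that at 24 h (horizontal) for the 558 genes whose time changes differed; the dotted diagonals mark equal distance at both times. Most points lie above and below the crossing of the diagonals, so their distance is larger at 1 h; FAM13A lies at -1.47 at 1 h and near 0 at 24 h.

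At the higher dose, TiO2-NB at 100 µg/ml, the time change called 6003 probe sets (27%) and 30.2% of genes, and its correlation with that at 10 µg/ml was 0.84 across genes, with no array in common. The difference between the doses passed for 59 probe sets (0.266%), which include 24 genes (0.201%), 22 with a more positive change at 10 µg/ml (0.184%) and 2 with a more negative one (0.0167%). All 24 were farther apart between the doses at 24 h than at 1 h. IL6R, the interleukin-6 receptor, was at 6.76, 6.85 and 6.54 at 24 h and at 6.71, 6.60 and 6.38 at 1 h with 10 µg/ml. With 100 µg/ml it was at 6.01, 5.23 and 4.79 at 24 h and at 6.75, 6.61 and 6.67 at 1 h, so that the dose groups separated at 24 h (difference of time changes 1.50 ± 0.25, adjusted p = 0.015). The zinc finger genes ZNF12 (1.18) and ZNF264 (1.09), the phosphoinositide-binding PLEKHA1 (1.13), the actin-binding PHACTR2 (0.96) and the forkhead repressor FOXN3 (0.90) showed the same order.

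CCL20, a chemokine of the gut epithelium, was one of the 2 genes with a more negative change at 10 µg/ml. It was at 8.01, 7.94 and 7.92 at 24 h and at 8.70, 8.87 and 8.80 at 1 h with 10 µg/ml, against 8.63, 8.63 and 8.70 at 24 h and 8.74, 8.77 and 8.74 at 1 h with 100 µg/ml (difference -0.74 ± 0.12). Controls were at 7.93, 7.94 and 7.68 at 24 h and at 8.83, 9.17 and 8.94 at 1 h, so the 100 µg/ml group at 24 h was the high one. The neuropeptide gene GAL differed by -0.43 (adjusted p = 0.050, just inside the threshold). These calls rested on single arrays. The count was 0 without the third 10 µg/ml array at 1 h, without the first 10 µg/ml array at 24 h or without the second 100 µg/ml array at 1 h, 368 without the first 100 µg/ml array at 24 h, and 1 in a fit on the 4 groups alone.

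**Figure D5:**
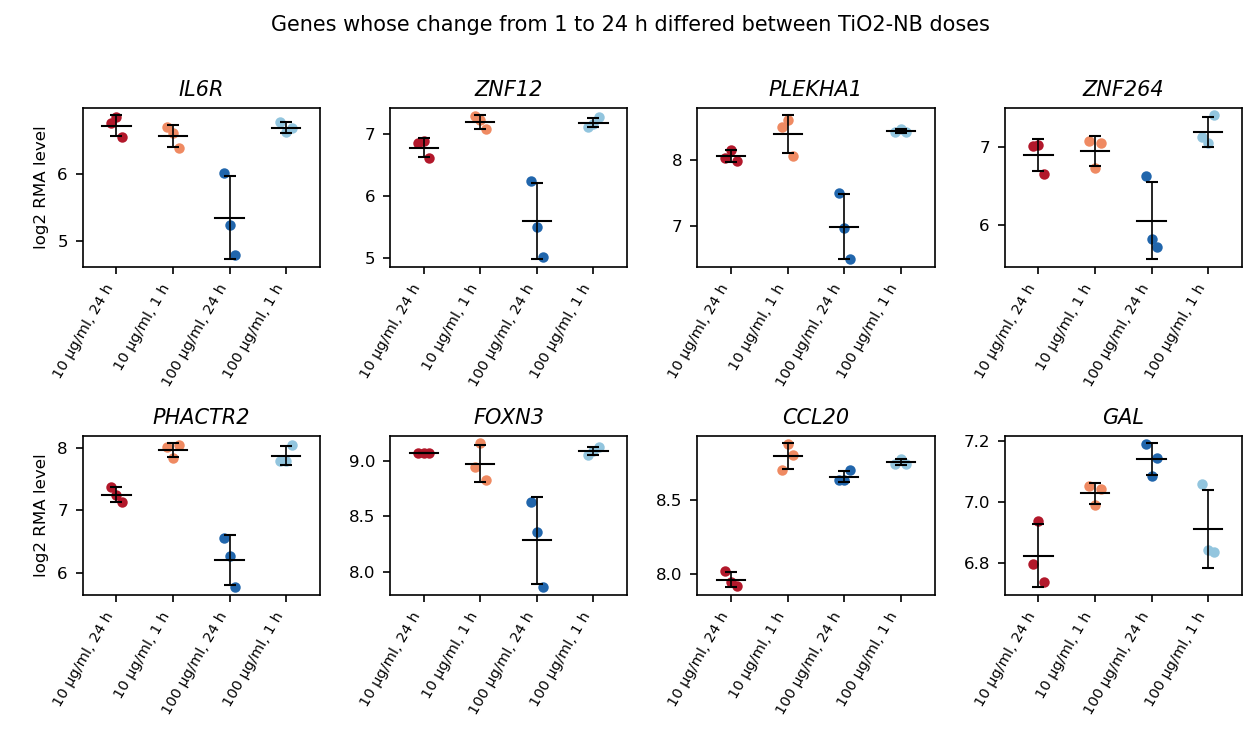
Log2 level in each array (points) with mean (bar) and SD (whiskers, n = 3) for 8 genes at TiO2-NB 10 and 100 µg/ml, 24 h and 1 h; each panel has its own axis, which does not start at 0. IL6R, ZNF12, PLEKHA1, ZNF264, PHACTR2 and FOXN3 are lowest and most spread at 100 µg/ml and 24 h, and CCL20 is low at 10 µg/ml and 24 h alone among these 4 groups.

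With MWCNT at 10 µg/ml, a carbon particle at the same dose, the time change called 4717 probe sets (21.2%) and correlated with that of the nanobelts at 0.82 across genes. No probe set passed for the difference between the particles in limma, while 2193 had an unadjusted p under 0.05, and between 0 and 3 passed in the alternative fits. The smallest p values were those of ZNF623, whose time change was more positive with nanobelts by 0.66 (adjusted p = 0.058), and of MT2A, more negative by 0.45 (adjusted p = 0.13), neither of which passed. That does not show that the particles act alike.

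Some genes gave opposite readings from different probe sets. Of 937 genes with at least 2 called probe sets, 129 had probe sets called in both directions between 1 and 24 h, and the brightest called one rose in 91 and fell in 38. NUP160, a nuclear pore component, rose by 0.27 in its brightest probe set and changed by -1.40 and -1.62 in the other pair. SYNCRIP, an RNA-binding protein gene, changed by -0.76 in its brightest probe set and rose by 0.64 and 0.40 in 2 others. PDS5A, a cohesin regulator, rose by 0.45 in its brightest and changed by -0.77 and -0.88 in 2 dimmer ones. Different probe sets of a gene can read different ends or isoforms of its transcripts, and no probe positions were used here. The probe set of FAM13A and several others named here are of design classes that can read more than 1 transcript.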

How the data were processed

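Gene expression was measured on 30 one-colour oligonucleotide arrays, 10 groups of 3. The authors deposited 1 log2 level per probe set and array, summarised with RMA, per the submitters' processing notes. Its version and chip definition were not given in the sources used here. RMA makes the distributions of all arrays alike, so only changes relative to the rest of an array are seen, and a shift of total RNA per cell cannot be seen. The deposited log2 values were used as they stand. Of 22277 probe sets, 62 were controls of the platform and were not tested.

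Genes were named from the platform annotation, which gives 1 symbol to 19064 of the 22215 tested probe sets, several to 1043 and none to 2108; 19052 of the first matched the RefSeq gene table and 0 symbols changed. The probe set with the highest mean over the 30 arrays stands for each of 11963 genes.

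A mean per group was fitted over all 30 arrays with limma 3.58.1 in R 4.3.3 (lmFit and eBayes, 20 residual and 3.68 prior degrees of freedom); p-values are two-sided and were adjusted by Benjamini-Hochberg across the 22215 probe sets of a comparison. An adjusted p under 0.05 is a call. The number of arrays limits the precision. The labels do not say what a shared replicate number means, and the main fit used no pairing. Same-numbered nanobelt arrays at 24 h and 1 h had correlations of -0.03, 0.07 and 0.00 in their deviations from the group means. The other pairs ran from -0.10 to 0.12. With 3 arrays per group, these values cannot decide whether same-numbered samples shared a batch.

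The text names the 15 largest rises and 15 largest falls among called genes whose arrays at 24 h and 1 h do not overlap, up to 6 genes in each direction for a difference of time changes (the 6 smallest p where none was called), and up to 4 members of each of 38 gene lists with the smallest p. All members may be named for the clock, metallothionein, mucin, brush border, sterol and NF-kB lists. Other members named, among them ATF3, CXCL8, SLC7A5, DNAJA1, EGLN1, HK2, ADM, NR5A2 and genes whose difference from control passed, were chosen after their values were seen. Lists hold 1039 members, of which 909 were measured. Samples, lists and tests were chosen with earlier results of these data known. The fits were repeated with each array left out in turn, with only the groups of a comparison, with 1 probe set per gene, with 18S as a covariate, with weights per array, with robust variances that follow intensity, after quantile normalisation was run again, without the dimmest 1 in 3 of probe sets, and with the replicate number as a block.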

Additional observations from a re-analysis of the deposited data

Results flagged for a closer look

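The results below are differences between the time change in the nanobelt cultures at 10 µg/ml and that in other cultures, by a test of the difference itself in limma. The time change differed from control for 851 probe sets. Among genes named for their size, it was more positive with nanobelts for FAM13A by 1.47, PCK1 by 1.18, KANK1 by 1.09, KHDC4 by 1.08, TRIM52 by 0.85 and PPARG by 0.85. It was more negative for BHLHE40 (-0.98), DDIT4 (-0.82), ANKRD11 (-0.74), CMKLR1 (-0.59), LRP6 (-0.58) and TIGAR (-0.58). FAM13A, KANK1, KHDC4 and PPARG have in common that the nanobelt cultures at 1 h were the low group, while both groups at 24 h were close together.

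The time change at 10 µg/ml differed from that at 100 µg/ml for 59 probe sets. It was more positive at 10 µg/ml for IL6R by 1.50, ZNF12 by 1.18, PLEKHA1 by 1.13, ZNF264 by 1.09, PHACTR2 by 0.96 and FOXN3 by 0.90. It was more negative for CCL20 (-0.74) and GAL (-0.43). The 3 arrays at 100 µg/ml and 24 h spread widely for the first 6 genes, from 4.79 to 6.01 for IL6R. All 8 genes lost their call in at least 1 alternative, and the fit on the compared groups alone called 1 probe set.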

How the results depend on the processing

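The count for 24 h against 1 h at 10 µg/ml (6071) lay between 4288 and 6489 over the alternatives on all or filtered probe sets, was 3915 with 1 probe set per gene, which tests fewer features, and ranged from 4984 to 5616 with 1 array left out. Against control (851) it was 277 in the fit on the compared groups only and 465 to 1024 with 1 array left out; against 100 µg/ml (59) it was 1 in that fit, 98 with the replicate number as a block, 103 without the lowest 1 in 3 of probe sets, 153 with array weights, 7 with 1 probe set per gene, 90 with the 18S covariate and 0 to 368 with 1 array left out. Against MWCNT (0) it was 2 without the lowest 1 in 3, 1 with the second normalisation, 3 with the intensity trend, 1 each with array weights, 1 probe set per gene and the 18S covariate, and 0 to 2 with 1 array left out. The cause of these shifts was not tested, apart from the fewer samples or features named. No named change reversed in the alternatives run. Of 2305 refitted values for 165 named genes at 10 µg/ml, 2245 stayed on the same side of the threshold, 42 lost their call and 18 gained one, and 483 of 539 values for 27 genes set against control kept theirs. Against 100 µg/ml only 95 of 160 values kept the call, and all 8 named genes lost it somewhere. With the replicate block the counts were 6000 for 24 h against 1 h and 834 against control, and the block ended no named call there. With 3 arrays per group, small changes may miss the threshold.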

Other observations

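Genes of fuel use and insulin signalling were mixed in the nanobelt cultures between 1 and 24 h. The counts below are read against 31.5% of all genes called, and 21.1% in controls; shares near these are not a result about a list. Of 22 genes of gluconeogenesis, FOXO and insulin signalling, 5 rose and 4 fell (40.9% called; 6 and 2 in controls). CITED2, a transcriptional coregulator, was at 9.20, 9.35 and 9.32 at 24 h, against 8.06, 8.25 and 8.22 at 1 h (1.11, limma adjusted p = 3.9e-10), so its groups lay about 1 log2 unit apart. The insulin receptor substrate IRS1 rose by 0.60 and the PI3-kinase subunit PIK3R1 by 0.39, and the mitochondrial carboxykinase PCK2 fell by 0.23. Of 25 genes of fatty acid oxidation and ketogenesis (36% called), 6 rose, among them PPARG and the electron carrier gene ETFDH (0.31), and 3 fell, among them CPT2 (-0.29), a step of fatty acid import into mitochondria. Of 14 genes of fatty acid synthesis, 3 rose and 2 fell (35.7% called); the carboxylase ACACA rose by 0.19 in its brightest probe set and changed by -0.46 in another. In the list for oxidative phosphorylation, 11 of 48 fell and none rose (22.9% called; 8 and 1 in controls), with the complex I gene NDUFA6 at -0.17 and the complex III gene CYC1 at -0.17. In a fit on the compared groups alone the calls of ACACA (adjusted p = 0.054), NDUFA6 (0.056) and CYC1 (0.066) were lost, those of ACACA and CYC1 also without the second array at 24 h. Apolipoprotein genes passed in 4 of 15 cases (26.7%).

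Of 9 iron handling genes, 4 rose and none fell (44.4% called), against 0 in either direction in controls: the iron-sensing aconitase ACO1 (0.18), the ferroxidase HEPH (0.16), the iron importer SLC11A2 (0.25) and the transferrin receptor TFRC (0.12). None of the 9 differed from control in its time change, and all 4 calls were lost in a fit on the compared groups alone (adjusted p between 0.052 and 0.18), those of SLC11A2 (0.060 to 0.090) and TFRC (0.053 to 0.13) also without single arrays. Among 14 xenobiotic transporters 4 rose, including ABCC5 (0.40) and SLCO4A1 (0.36), and 1 fell (35.7% called). Of 34 actin and focal adhesion genes, 5 rose and 6 fell (32.4% called). This share and that of the transporters lie near the 31.5% of all genes. The integrin ITGAV changed by 0.31 and the YAP target CCN2 by -0.36, beside KANK1 and RHOB. Of 13 barrier antigens 2 fell, among them S100P (-0.27). Among markers of other cell types, 4 of 14 hepatocyte genes fell (28.6% called, near the share of all genes). They include the fibrinogen chains FGA (-0.70) and FGB (-0.38), the FGA level being 9.24 on average at 24 h and 9.94 at 1 h. In the leukocyte list 1 of 20 fell (CD14, -0.29), in the fibroblast and endothelial list 1 of 18 rose (PDGFRA, 0.58), and in the enteroendocrine and Paneth list none of 14 passed. The calls of FGB (0.067 and 0.12) and CD14 (0.057 and 0.066) were each lost without either of 2 single arrays, given as limma adjusted p.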
